A study of Rattus norvegicus with 38 samples.

Results

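NRF2, the transcription factor encoded by Nfe2l2, was followed in the lung together with its inhibitor Keap1 and 8 of its best-known target genes: Slc7a11, Gclc, Gclm, Gsr, Txnrd1, Srxn1, Nqo1 and Hmox1. These 10 genes were chosen by symbol, from knowledge of the pathway and with earlier results of these data known. All 10 were measured, with 15 probe sets out of 31099 on the array and among 14217 genes with a probe set of their own. For each gene the probe set with the highest mean was used, and the others are given beside it. The animals were N:NIH rats, female and 34 weeks old. They came from a line selected for a high intrinsic capacity to run (HCR) or from its low counterpart (LCR). Cigarette smoke or, as sham, room air was given on 5 days of each week for 12 weeks before the lungs were removed. RNA from about 25 mg of lung of each animal was put on its own Affymetrix Rat Genome 230 2.0 array: 7 sham and 12 smoke arrays of HCR, and as many of LCR.

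KEAP1 binds NRF2 in the cytoplasm and, with a cullin ligase, marks it for degradation. Electrophiles and oxidants, both present in cigarette smoke, modify cysteines of KEAP1, NRF2 then escapes degradation, pairs with small MAF proteins and binds antioxidant response elements near its target genes. Much of this control is exerted on the protein, so the messenger RNA of Nfe2l2 and Keap1 is only a partial reading of it. In lung, epithelial cells and alveolar macrophages are known to use the pathway against inhaled oxidants. The targets work together: one set imports cystine and builds glutathione, another returns oxidised glutathione and protein thiols to the reduced state, and others detoxify quinones and heme.

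An antioxidant response element has the core TGACNNNGC or TGAGNNNGC, and these letters were looked for on both strands of RefSeq promoter windows of the GRCr8 assembly, which run from 250 bases before to 50 bases after the annotated start. A window was found for 8 of the 10 members, with 9 windows since Txnrd1 had 2; none was matched for Hmox1 and Gsr. A match stood in the windows of 4 members, Nfe2l2, Gclm, Txnrd1 and Srxn1, and 27.1% of all 33469 windows of that length held one, so the letters alone are common. TGACNNNGC was in 12.1% of the windows and TGAGNNNGC in 17.2%. The Keap1, Nqo1, Gclc and Slc7a11 windows held neither motif, which says only that these letters are not in this stretch. The stretches below are printed 5′ to 3′ on the strand of the gene, with the match in capitals, because they let the members that rose under smoke be set beside each other; a match is a description and not a tested site.
Gclm, chr2:213031953-213031981, + strand: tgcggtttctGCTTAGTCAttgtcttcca
Txnrd1, chr7:22755964-22755992, - strand: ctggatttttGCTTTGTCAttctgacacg
Nfe2l2, chr3:81028950-81028971, - strand: gactagccatTGACGCCGCctc

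The matches lay from 172 to 164 bases before the start of Gclm, from 78 to 70 bases before the start of the second Txnrd1 window, and from base 39 to base 47 after the start of Nfe2l2. Srxn1 was the member with the most matches, 3 in 1 window. Its stretch from 250 bases before to 24 bases after the start, chr3:161064562-161064835 on the + strand, is shown with the 3 matches in capitals.
Srxn1: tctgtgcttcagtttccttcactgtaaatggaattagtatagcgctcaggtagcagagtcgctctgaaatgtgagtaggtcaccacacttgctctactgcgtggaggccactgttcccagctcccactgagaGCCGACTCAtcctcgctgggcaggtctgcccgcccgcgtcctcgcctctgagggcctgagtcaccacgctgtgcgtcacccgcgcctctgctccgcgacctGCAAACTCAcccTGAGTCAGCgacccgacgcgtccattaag
The 3 matches lay from 118 to 110 and from 17 to 9 bases before the start, on the opposite strand, and across the start itself on the gene's strand. The last of them, TGAGTCAGC, contains TGAGTCA, the sequence also known as an AP-1 site, which 4.63% of all windows held. Another TGAGTCA, at bases -62 to -56 from the start, lies outside the 3 matches and is in lower case above.

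The labelled tissue was borne out by its defining genes: mean intensity in the 4 groups was 10225 to 10683 for Sftpc, the surfactant protein of type 2 alveolar cells, and 674 to 1083 for the endothelial Pecam1. Some arrays carried high muscle markers, with heart muscle list means up to 4.42 log2 above the average of all arrays on LCR sham 0442 and up to 4.09 on HCR smoke 0415. The list mean ran from -1.01 to 2.27 in HCR sham, -0.97 to 4.09 in HCR smoke, -1.07 to 4.42 in LCR sham and -1.10 to 0.86 in LCR smoke. Values are also given without 6 arrays with high muscle or fat markers where that matters. These were HCR sham 0433, LCR sham 0442 and HCR smoke 0410, 0414, 0415 and 0417, and no LCR smoke array was among them. The numbers of the arrays are grouped by condition, so the order and the condition cannot be told apart. The number of arrays limits the precision, and in whole lung fewer cells of a type and less RNA per cell cannot be told apart.

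Smoke raised NRF2 and 8 of its targets in both lines, and left Keap1 without a called change. In HCR 9 of the 10 genes were higher (limma, adjusted p under 0.05), all but Keap1, where 17.7% of all genes were called higher. In LCR the count was 9 of 10 against 22.7% of all genes. Smoke moved a large share of the lung transcriptome, 48.0% of genes in HCR and 50.6% in LCR in either direction, so the call itself separates the members less than their size does. At least 2-fold higher were 7 of the 10 in each line, Slc7a11, Gclc, Gclm, Txnrd1, Srxn1, Nqo1 and Hmox1, against 0.492% of genes in HCR and 0.914% in LCR. The median change of the 10 genes was 1.35 log2 in HCR and 1.31 log2 in LCR, and that of all genes was -0.03 and -0.00. Here a change is a difference of log2(intensity + 16) ± its standard error; on this scale the change of dim probe sets comes out too small.

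**Figure D1:**
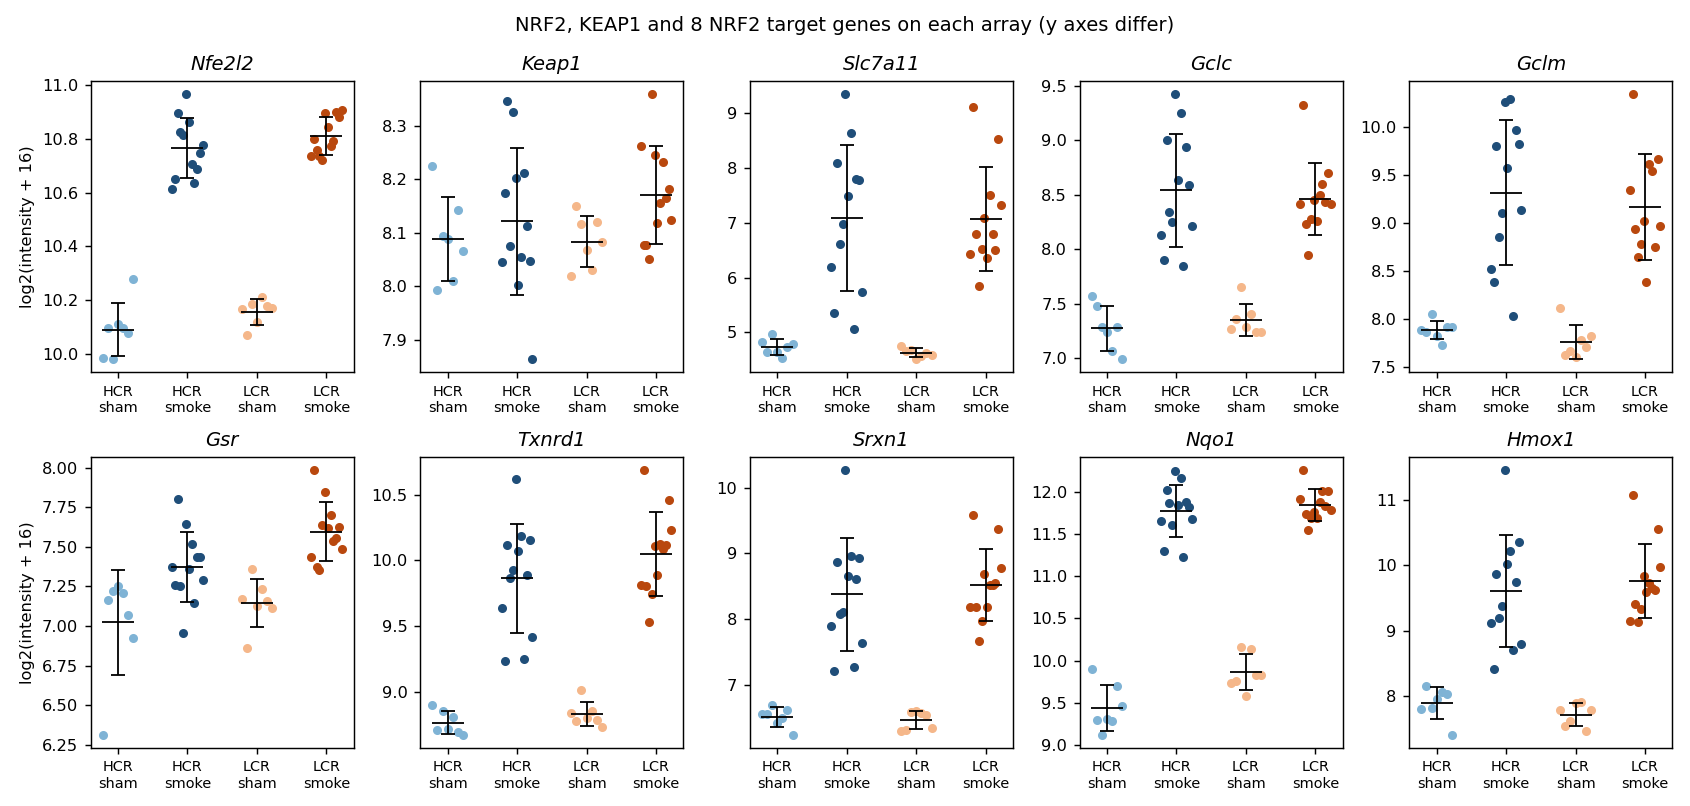
Each panel plots log2(intensity + 16) of 1 gene on every array, grouped by line and exposure (7 sham and 12 smoke arrays in each line); horizontal bars and whiskers are the mean and SD, and the y axes differ between panels. Smoke arrays lie above sham arrays for all genes but Keap1, with overlap for Gsr and, on 1 HCR array, Gclm, and the smoke groups of Slc7a11, Srxn1 and Hmox1 are spread widely.

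The regulators come first. Nfe2l2 intensity was lowest at 995, median 1078 and highest at 1227 on HCR sham arrays, and 1553, 1722 and 1986 on HCR smoke arrays. On LCR sham arrays it was 1059, 1137 and 1169, and on LCR smoke arrays 1671, 1762 and 1905. Every smoke array was above every sham array of its line, and the values within a group lay close together. The rise was 0.68 ± 0.04 log2 in HCR (limma, adjusted p = 2.46e-14) and 0.66 ± 0.04 in LCR (limma, adjusted p = 2.70e-14), about 1.6-fold in each. It was the smallest rise but 1 among the 9 that were called, and the one with the smallest error.

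Keap1 intensity was lowest at 239, median 256 and highest at 283 on HCR sham arrays, and 217, 257 and 309 on HCR smoke arrays. In LCR the sham arrays gave 243, 255 and 268 and the smoke arrays 249, 270 and 312. The groups overlapped in both lines, with 10 of 12 HCR smoke arrays and 5 of 12 LCR smoke arrays not above the highest sham array. The difference was 0.03 ± 0.05 log2 in HCR (limma, adjusted p = 0.593), with a 95% confidence interval of -0.06 to 0.13, and 0.09 ± 0.05 in LCR (limma, adjusted p = 0.129), with an interval of -0.01 to 0.18. The LCR difference passed the threshold under 7 of 53 other settings, at 0.10 to 0.18 log2, and the HCR difference under quantile normalization alone, at 0.11. A dimmer second probe set of Keap1 gave 0.17 ± 0.13 in HCR (limma, adjusted p = 0.319) and 0.27 ± 0.13 in LCR (limma, adjusted p = 0.0908). Its HCR value rested in part on HCR sham 0432, at 26.5 against 78.9 to 127 on the other sham arrays. It was not fitted without that array.

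Of the genes that feed glutathione synthesis, Slc7a11, the cystine importer of system xc-, was barely above the bottom of the scale without smoke. Its intensity was 7.03, 10.5 and 15.3 (lowest, median, highest) on HCR sham arrays and 6.90, 8.50 and 11.1 on LCR sham arrays, where the lowest value of the whole table is 2.09. On HCR smoke arrays it was 17.6, 137 and 634, and on LCR smoke arrays 41.5, 95.1 and 539. Every smoke array was above every sham array of its line, but HCR smoke 0416, the lowest, was hardly so, while HCR smoke 0413 and LCR smoke 0421 stood highest. The change was 2.36 ± 0.43 log2 in HCR (limma, adjusted p = 3.29e-05) and 2.44 ± 0.43 in LCR (limma, adjusted p = 1.50e-05). With such low sham values its size depends on the pseudocount, from 1.41 with 64 to 3.31 with 1 in HCR and from 1.37 to 3.59 in LCR, and the ratio of mean intensities was 17.1 in HCR and 17.5 in LCR. Slc3a2, which encodes the heavy chain that Slc7a11 needs at the membrane, differed by -0.09 ± 0.04 in HCR and 0.07 ± 0.04 in LCR, not called in either (limma, adjusted p = 0.0797 and 0.168).

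Gclc and Gclm encode the catalytic and modifier subunits of glutamate-cysteine ligase, the rate-limiting enzyme of glutathione synthesis. Gclc intensity was 111, 140 and 174 on HCR sham, 214, 338 and 670 on HCR smoke, 135, 140 and 185 on LCR sham, and 230, 328 and 623 on LCR smoke arrays. The groups of a line did not overlap. Gclm intensity was 196, 220 and 248 on HCR sham, 245, 644 and 1237 on HCR smoke, 178, 192 and 260 on LCR sham, and 317, 493 and 1277 on LCR smoke arrays. Here 1 smoke array, HCR smoke 0416, lay within the sham range, and the LCR groups did not overlap.

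Gclc rose by 1.27 ± 0.17 log2 in HCR (limma, adjusted p = 3.56e-07) and by 1.11 ± 0.17 in LCR (limma, adjusted p = 1.50e-06). Gclm rose by 1.43 ± 0.25 in HCR (limma, adjusted p = 1.76e-05) and by 1.41 ± 0.25 in LCR (limma, adjusted p = 1.56e-05). A second Gclc probe set gave nearly the same, 1.29 ± 0.17 and 1.09 ± 0.17. Gss, which adds the last amino acid of glutathione, rose by far less, 0.19 ± 0.07 in HCR and 0.27 ± 0.07 in LCR (limma, adjusted p = 0.0322 and 0.00283).

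Among the enzymes that restore thiols, Gsr, glutathione reductase, moved least. Its intensity was 63.6, 127 and 137 on HCR sham, 108, 149 and 207 on HCR smoke, 100.03, 127 and 148 on LCR sham, and 147, 176 and 237 on LCR smoke arrays. Smoke and sham overlapped in both lines, on HCR smoke 0411, 0412 and 0416 and on LCR smoke 0423. Gsr rose by 0.35 ± 0.10 log2 in HCR (limma, adjusted p = 0.00618) and by 0.45 ± 0.10 in LCR (limma, adjusted p = 5.45e-04). The HCR change rested in part on HCR sham 0432, the lowest array, also the one with the largest 3′ minus 5′ difference of Actb and Gapdh, a measure of RNA degradation or incomplete labelling: it was 0.23 without that array, and 0.17 and 0.18 with the Gapdh and Actb differences as covariates, where it was not called (limma, adjusted p = 0.0973 and 0.0876).

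Txnrd1, cytosolic thioredoxin reductase, had an intensity of 392, 405 and 462 on HCR sham, 587, 944 and 1559 on HCR smoke, 408, 429 and 500.3 on LCR sham, and 723, 1080.3 and 1636 on LCR smoke arrays. Every smoke array exceeded every sham array of its line. The rise was 1.10 ± 0.14 log2 in HCR (limma, adjusted p = 1.55e-07) and 1.22 ± 0.14 in LCR (limma, adjusted p = 8.57e-09), and a second probe set gave 1.39 ± 0.18 and 1.44 ± 0.18. On this second probe set HCR sham 0432 was lowest at 63.2, against 150 to 160 on the others, which makes the HCR change larger. It was also lowest on the second Gclc probe set, at 57.3 against 80.6 to 98.3.

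Srxn1, sulfiredoxin, which repairs overoxidised peroxiredoxins, had an intensity of 59.6, 77.5 and 87.3 on HCR sham, 131, 318 and 1221 on HCR smoke, 62.2, 76.9 and 81.3 on LCR sham, and 188, 350 and 750.2 on LCR smoke arrays. The groups of a line did not overlap, and HCR smoke 0413 was far above the next HCR array, at 485. It rose by 1.87 ± 0.27 log2 in HCR (limma, adjusted p = 1.28e-06) and by 2.05 ± 0.27 in LCR (limma, adjusted p = 1.35e-07). A dimmer probe set gave 1.49 ± 0.28 and 1.78 ± 0.28, with HCR sham 0432 lowest at 10.9, against 17.2 to 26.2 on the others. The dimmest stayed at a mean intensity of 4.66 with differences of 0.01 ± 0.02 and 0.02 ± 0.02. The mean of all 3 therefore gave only 1.12 in HCR and 1.28 in LCR.

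Nqo1, the quinone reductase used as the standard reporter of NRF2 activity, had an intensity of 542, 620.0 and 938 on HCR sham, 2384, 3639 and 4865 on HCR smoke, 749, 893 and 1131 on LCR sham, and 2972, 3575 and 4893 on LCR smoke arrays. The gap between the exposures was wide: the lowest smoke array stood 1.33 log2 above the highest sham array in HCR and 1.38 in LCR, the widest gaps of any member. Nqo1 rose by 2.34 ± 0.12 log2 in HCR (limma, adjusted p = 2.19e-17) and by 1.98 ± 0.12 in LCR (limma, adjusted p = 3.21e-15), which is 5.06-fold and 3.95-fold. By size it was in place 13 of 14217 genes in HCR and 27 in LCR.

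Hmox1, heme oxygenase 1, had an intensity of 154, 231 and 268 on HCR sham, 324, 749 and 2807 on HCR smoke, 160.0, 204 and 222 on LCR sham, and 547, 782 and 2146 on LCR smoke arrays. The groups of a line did not overlap, by 0.26 log2 in HCR and 1.24 in LCR. HCR smoke 0413 was far above the rest of its group, where the next array was at 1302. In LCR smoke 0421 was highest, and 0430 followed at 1496. The rise was 1.72 ± 0.28 log2 in HCR (limma, adjusted p = 5.56e-06) and 2.05 ± 0.28 in LCR (limma, adjusted p = 1.88e-07). Counted over all members, smoke and sham arrays did not overlap for 7 of 10 in HCR and 8 of 10 in LCR, against 1.58% and 5.90% of all genes.

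**Figure D2:**
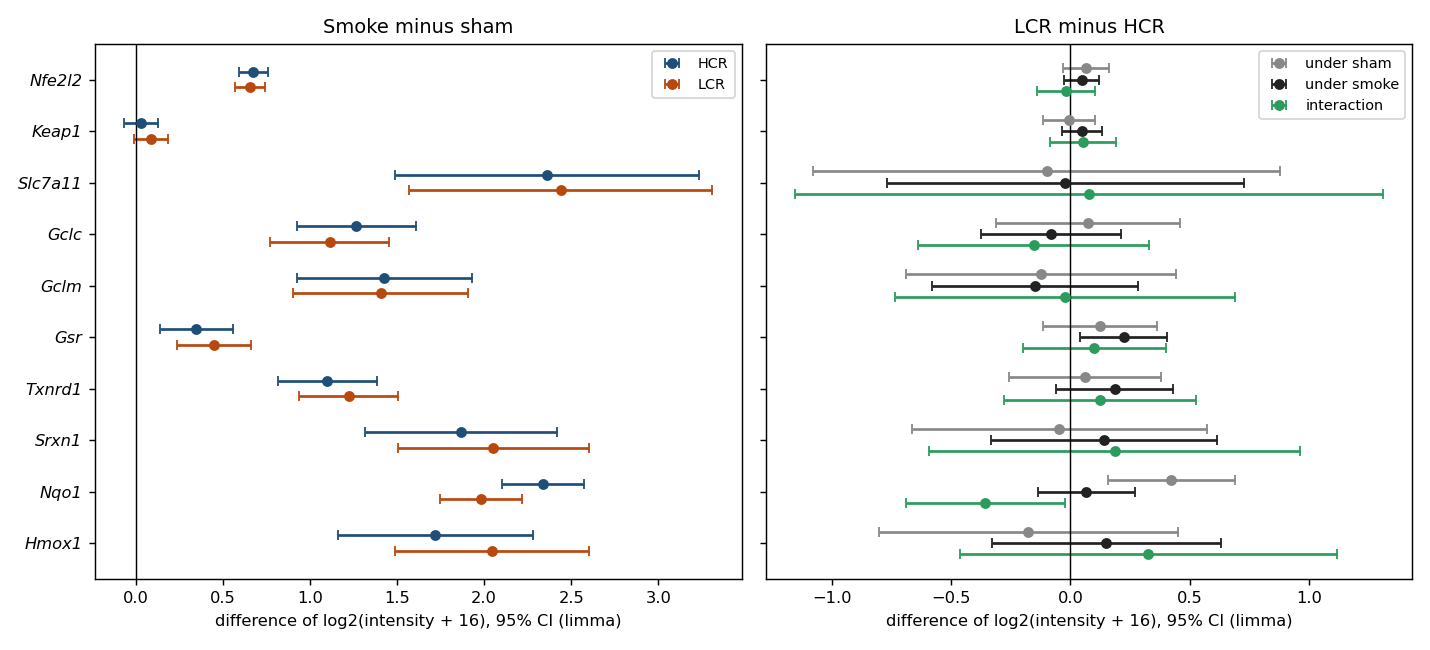
Differences of log2(intensity + 16) with 95% confidence intervals from limma, for smoke minus sham in each line (left) and for LCR minus HCR under sham, under smoke and as the interaction (right). On the left all intervals but those of Keap1 lie above 0; on the right those of Nqo1 under sham (0.16 to 0.69), Gsr under smoke (0.04 to 0.40) and the Nqo1 interaction (-0.69 to -0.02) leave out 0, and none of the 3 passed after adjustment over all genes.

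No member was called between the lines. Under sham 0 of 10 members were called between the lines, against 3.73% of all genes; under smoke 0 of 10, against 6.32%; and for the interaction, LCR's response to smoke less HCR's, 0 of 10, against 1.87% (limma, adjusted p under 0.05). At an unadjusted p under 0.05 limma gave 1 member in each, against 17.4%, 24.2% and 18.7% of all genes. Nqo1 was higher in LCR under sham by 0.42 ± 0.13 log2 (limma, adjusted p = 0.0609), with 7 of 7 LCR arrays above the HCR mean, though the intensities of 749 to 1131 in LCR overlapped those of 542 to 938 in HCR. It passed under 10 of 53 other settings, with adjusted p between 0.0103 and 0.189 over all of them. Its smoke change was smaller in LCR by 0.36 ± 0.16 log2, from -0.69 to -0.02 (limma, adjusted p = 0.232), and under smoke the lines differed by 0.07 ± 0.10. The 6 arrays with high muscle or fat markers include HCR smoke but no LCR smoke arrays. Without them the Nqo1 interaction was -0.18 ± 0.18 (limma, adjusted p = 0.681). Its difference under sham was then 0.35 ± 0.14 (limma, adjusted p = 0.189). Gsr was higher in LCR under smoke by 0.22 ± 0.09 (limma, adjusted p = 0.121), with 11 of 12 LCR arrays above the HCR mean.

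For the other members the interval shows what the data leave room for. The interaction was -0.02 ± 0.06 log2 for Nfe2l2, with an interval of -0.14 to 0.10, and 0.05 ± 0.07 for Keap1, from -0.08 to 0.19, so differences between the lines of the size of the Nfe2l2 smoke change lie outside it. It was far looser for the targets that varied most, from -1.15 to 1.31 for Slc7a11, from -0.59 to 0.96 for Srxn1 and from -0.46 to 1.12 for Hmox1. Intervals of that width hold differences of about 2-fold, and a p above the threshold does not show that the lines responded alike.

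Smoke-exposed animals differed from each other more than sham animals in several targets. The SD of log2(intensity + 16) of Slc7a11 was 0.15 on HCR sham and 1.33 on HCR smoke arrays, that of Srxn1 0.15 and 0.86, that of Gclm 0.10 and 0.76 and that of Hmox1 0.25 and 0.85. For Nfe2l2 it was 0.10 and 0.11, and for Nqo1 0.27 and 0.31. Deviations from the group median were compared between exposures by an exact two-sided permutation test, over 20 comparisons adjusted together, a test chosen after seeing the data. The test was run on the members only, so the share of all genes that were wider under smoke is not known. In HCR 3 of 10 members were wider under smoke, Gclm (p = 8.7e-04, adjusted 0.017), Slc7a11 (p = 0.002, adjusted 0.02) and Srxn1 (p = 0.0045, adjusted 0.03), and the same number with a pseudocount of 1. Hmox1 in HCR did not pass (p = 0.012, adjusted 0.06), nor did any member in LCR, where the SD of Slc7a11 was 0.08 and 0.94 (p = 0.029, adjusted 0.082). The limma test takes 1 spread for all groups of a gene.

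The same animals stood at the ends for target after target. Among the 12 HCR smoke arrays, 0413 and 0415 were among the 3 highest for all 8 targets, and 0416 was among the 3 lowest for all 8 and 0409 for 7 of them. Among the LCR smoke arrays, 0421 was the highest for all 8 targets and 0423 was lowest or next to lowest for all 8, with 0430 among the 3 highest for 7. On Hmox1 these ends were 2807 on HCR smoke 0413 against 324 on 0409, and 2146 on LCR smoke 0421 against 547 on 0423. Nfe2l2 and Keap1 shared these ends only in part. On the LCR arrays 0431 was highest for Nfe2l2 and 0424 for Keap1, while 0423 was next to lowest for Nfe2l2 and lowest for Keap1. On the HCR arrays Nfe2l2 was highest on 0413 and next to lowest on 0416, and Keap1 was highest on 0410 and lowest on 0419.

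**Figure D3:**
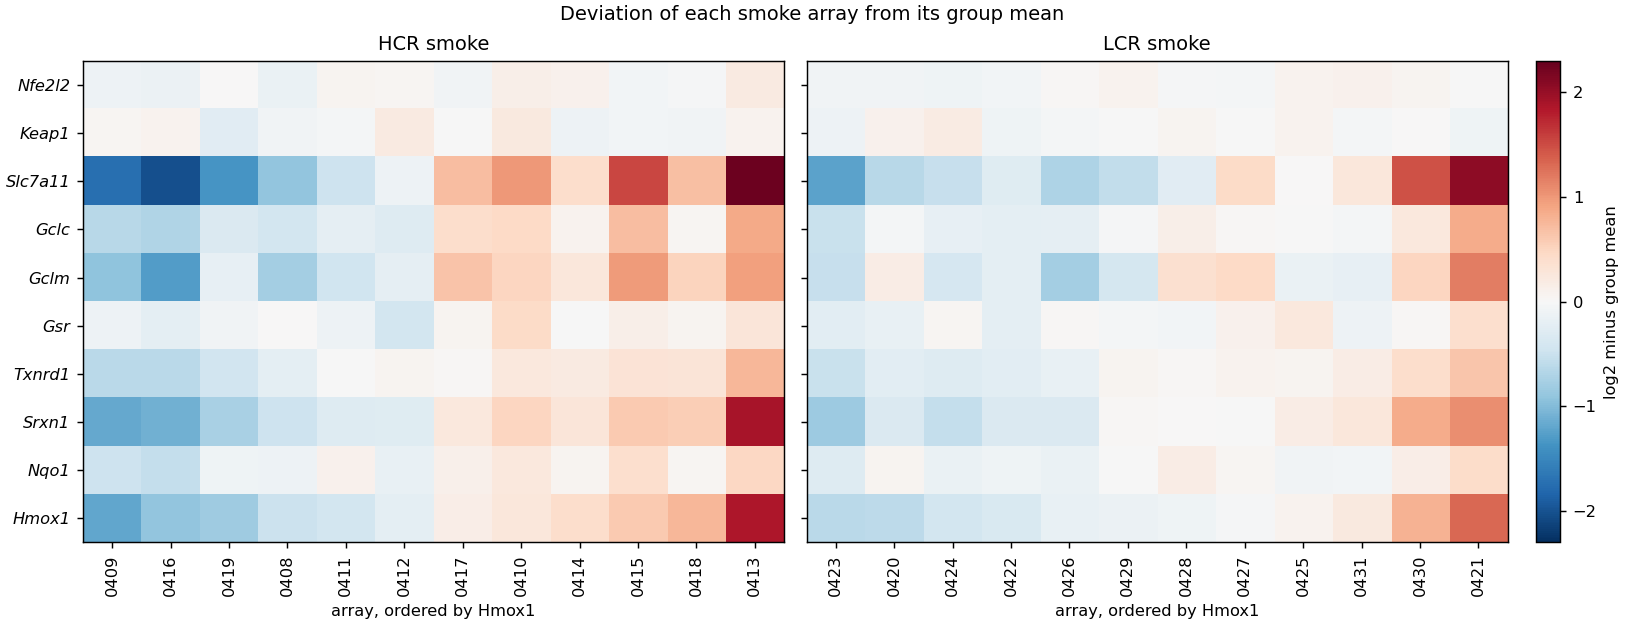
Colour shows log2(intensity + 16) minus the mean of the group for each gene (vertical axis) on each smoke array (horizontal axis, ordered by Hmox1 from low to high), for HCR smoke on the left and LCR smoke on the right. The columns of HCR smoke 0413 and LCR smoke 0421 are high in all 8 targets, and the upper rows, Nfe2l2 and Keap1, stay near 0.

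Pairwise correlations over the 12 arrays of a smoke group put numbers to this. The 10 members give 45 pairs in each line, tested by permutation with 100000 resamples and adjusted over the 90 pairs. Both genes of a pair are read on the same arrays, so the values are a description of these animals. Pairs of other genes were not tested, so how common such correlations are among all genes of these arrays is not known. In HCR 27 of the 28 pairs among the 8 targets passed, with a median r of 0.90, and in LCR 26 of 28 with a median of 0.84. The 2 farthest arrays are those farthest from the median of the gene named first, so they change from pair to pair. The closest pair in HCR was Hmox1 and Srxn1, with r = 0.989 and rho = 0.986 (permutation p = 1.0e-05 for each, the smallest that these resamples can give, adjusted 5.6e-05 for r and 1.5e-04 for rho) and r = 0.971 without the 2 farthest arrays. In LCR it was Txnrd1 and Srxn1, with r = 0.988 and rho = 0.930 (permutation p = 1.0e-05 and 6.0e-05, adjusted 5.6e-05 and 4.5e-04) and r = 0.975 without the 2 farthest arrays. Nqo1 went most closely with Gclc, at r = 0.941 in HCR and 0.956 in LCR and rho = 0.958 and 0.881 (permutation p = 1.0e-05 for each r, adjusted 5.6e-05; p = 1.0e-05 and 4.2e-04 for rho, adjusted 1.5e-04 and 0.0017), and 0.946 and 0.897 without the 2 farthest arrays.

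Some correlations were lower without the animals at the ends. Whether they fell more in one line was not tested. Without the 2 arrays farthest from the median of each pair's first gene, the median r among targets was 0.84 in HCR and 0.59 in LCR. For Hmox1 and Gclm in LCR, r fell from 0.728 (rho = 0.678, permutation p = 0.0079 and 0.018, adjusted 0.016 and 0.033) to 0.190 without the 2 arrays farthest from the Hmox1 median. Its rho over all arrays passed, and leaving out the ends narrows the range, which by itself can lower r. For Nqo1 and Hmox1 in LCR r was 0.774 (rho = 0.622, permutation p = 0.0039 and 0.034, adjusted 0.0087 and 0.055) and 0.406 without the 2 arrays farthest from the Nqo1 median. With 1 array left out in turn, an alternative chosen after seeing the data, between 23 and 33 of the 45 HCR pairs and between 19 and 28 of the LCR pairs passed, against 31 and 26 with all arrays, the fewest without HCR smoke 0413 and without LCR smoke 0421.

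For Nfe2l2 fewer pairs passed, and for Keap1 0 did. In HCR 4 of the 9 pairs of Nfe2l2 passed, those with Txnrd1, Srxn1, Nqo1 and Hmox1, the closest being Txnrd1 at r = 0.714 and rho = 0.615 (permutation p = 0.01 and 0.038, adjusted 0.019 and 0.06), and 0.579 without the 2 farthest arrays. By rho none of these 4 passed (adjusted 0.06 to 0.073), and the 1 pair that did, with Gclc (rho = 0.650, permutation p = 0.026, adjusted 0.043), did not pass by r (r = 0.579, permutation p = 0.05, adjusted 0.074, 0.331 without the 2 farthest arrays). In LCR 0 of 9 passed by r, with a median r of 0.28, and 3 by rho, with Hmox1, Txnrd1 and Srxn1 (rho = 0.706, 0.720 and 0.734). The r of Keap1 with the others ran from -0.06 to 0.22 in HCR and from -0.26 to 0.13 in LCR, and 0 of 9 pairs passed in either line. Whether Nfe2l2 was less closely tied to the targets than they were to each other was not tested; its own range on smoke arrays, an SD of 0.11 log2 in HCR and 0.07 in LCR, was small.

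**Figure D4:**
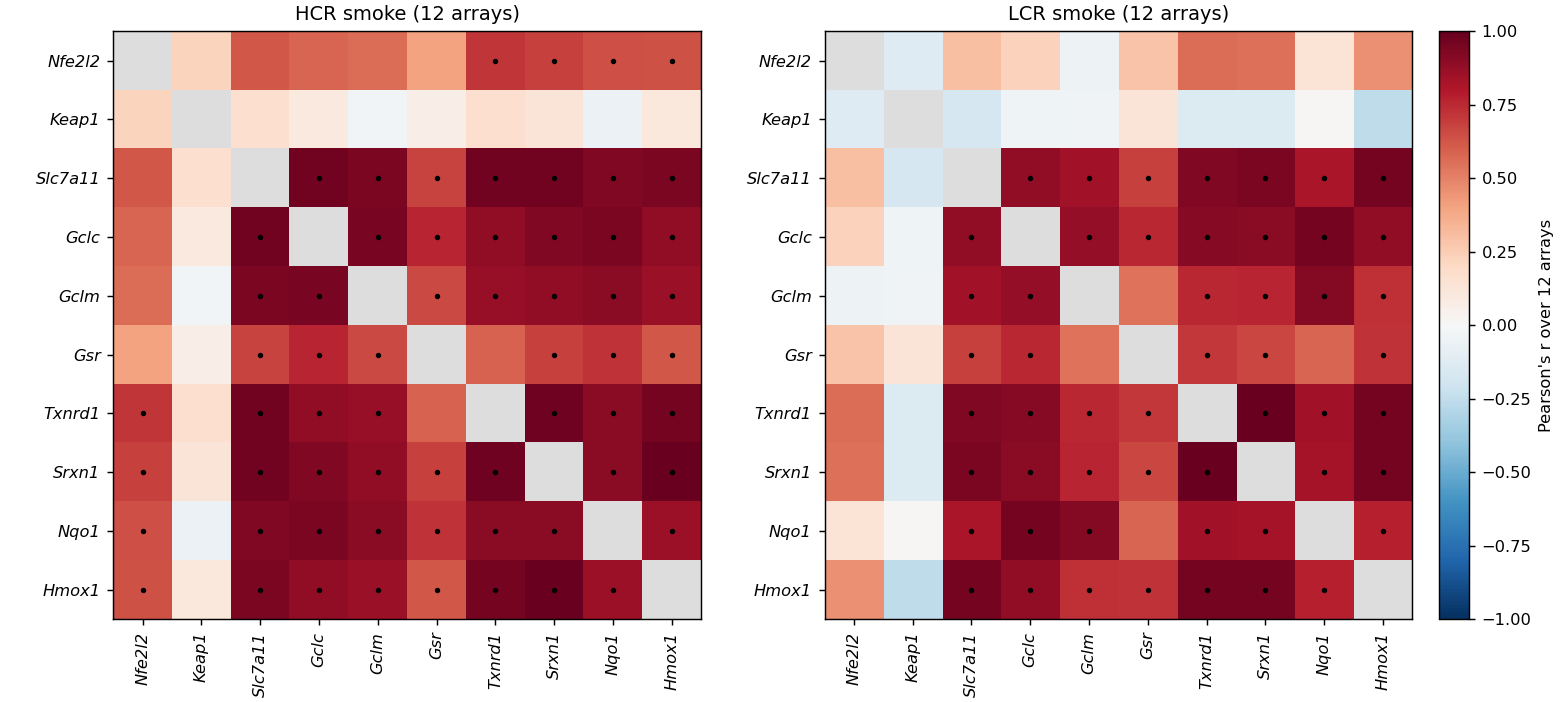
Pearson's r between members over the 12 arrays of HCR smoke (left) and of LCR smoke (right), by colour from -1 to 1; dots mark pairs with an adjusted p under 0.05 over 90 pairs. The block of the 8 targets is positive throughout, from 0.59 to 0.99 in HCR and from 0.55 to 0.99 in LCR, and the Keap1 row stays pale.

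Other measures of the same arrays were set against each member within the smoke groups, in 100 relations adjusted together and chosen after seeing the data. Genes other than the members were not set against them, so the share of all genes that would pass is not known. Here the 2 farthest arrays are those farthest from the median of the measure. With Cyp1a1, the dioxin-inducible cytochrome of the aryl hydrocarbon receptor, 1 of 10 members passed in HCR, Nfe2l2 (r = 0.841, rho = 0.811, permutation p = 3.2e-04 and 0.0023, adjusted 0.016 and 0.1, r = 0.683 without the 2 farthest arrays), and 0 of 10 in LCR, where r ran from 0.25 to 0.63. With the mean of the neutrophil markers 0 of 10 passed in HCR, where r ran from 0.08 to 0.73, and 1 in LCR, Hmox1 (r = 0.815, rho = 0.846, permutation p = 2.1e-04 and 8.5e-04, adjusted 0.016 and 0.085, r = 0.901 without the 2 farthest arrays). With the macrophage marker mean, the heart muscle marker mean and the spread of the array's values, 0 of 10 passed in either line, with r from -0.59 to 0.65. For the heart muscle mean, rho with the 8 targets was 0.57 to 0.77 in HCR and -0.53 to 0.02 in LCR. The highest was Gclm in HCR (rho = 0.769, permutation p = 0.005, adjusted 0.1, r = 0.614, 0.457 without the 2 farthest arrays). For Nfe2l2 rho was 0.336 in HCR (permutation p = 0.29, adjusted 0.48, r = 0.180, 0.155 without the 2 farthest arrays). In LCR it was -0.790 (permutation p = 0.0034, adjusted 0.1, r = -0.587, -0.787 without the 2 farthest arrays). HCR smoke 0415, among the 3 highest for all 8 targets, had the highest heart muscle mean of its group.

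Markers of macrophages, neutrophils and endothelial cells moved with smoke alongside the members. The share of all genes called higher was 17.7% in HCR and 22.7% in LCR, and that called in either direction 48.0% and 50.6%. Of 12 measured macrophage markers 7 were higher and 3 lower in HCR and 9 higher and 2 lower in LCR, and the mean of the list ran from -0.73 to 0.07 on HCR sham, -0.29 to 0.53 on HCR smoke, -0.99 to -0.45 on LCR sham and -0.01 to 0.86 on LCR smoke arrays, relative to all arrays. In LCR the exposures did not overlap in this mean. The summed intensity of the 12 was 6046 to 9620 on HCR sham, 8675 to 17554 on HCR smoke, 4444 to 7552 on LCR sham and 12412 to 17880 on LCR smoke arrays. Of 8 measured neutrophil markers 5 were higher in each line, and their mean ran from -1.33 to 0.42 on HCR sham, -0.36 to 0.99 on HCR smoke, -1.18 to -0.63 on LCR sham and 0.29 to 0.83 on LCR smoke arrays. Of 7 measured endothelial markers 6 were lower in HCR and 7 in LCR, with a median change of -0.41 and -0.46 log2. Their mean ran from 0.15 to 0.36 on HCR sham, -0.36 to 0.04 on HCR smoke, 0.08 to 0.39 on LCR sham and -0.32 to -0.08 on LCR smoke arrays, with no overlap between the exposures of a line, and their summed intensity was 14428 to 16909, 10531 to 13888, 13599 to 17032 and 10857 to 12902. Of 10 measured lung epithelial markers 3 were higher and 3 lower in HCR, and 4 higher and 3 lower in LCR. Lamp3, Sftpa1 and Sftpd were higher and Ager and Aqp5 lower in both lines. Epcam was also lower in HCR, and in LCR Sftpc was higher and Scgb1a1 lower. The median change of this list was 0.02 log2 in HCR and 0.07 in LCR. The part of the endothelial, neutrophil and epithelial markers in the members' rise was not tested.

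With the macrophage mean as a covariate 8 members stayed called in HCR, all but Gsr and Keap1, with Hmox1 at 1.09 ± 0.36 (limma, adjusted p = 0.0231). In LCR 2 stayed called, Nfe2l2 at 0.58 ± 0.08 (limma, adjusted p = 3.56e-05) and Nqo1 at 1.84 ± 0.22 (limma, adjusted p = 2.69e-06), and the other 7 were not. With this covariate the standard errors grew, and the folds of those 7 were kept to different degrees. Gclm was 1.40 ± 0.47 (limma, adjusted p = 0.0765), against 1.41 ± 0.25 without it, so its call was lost with its fold kept. Txnrd1 was 0.81 ± 0.26 (limma, adjusted p = 0.0562) against 1.22 ± 0.14, Gclc 0.79 ± 0.32 (limma, adjusted p = 0.125) against 1.11 ± 0.17, and Srxn1 1.24 ± 0.49 (limma, adjusted p = 0.124) against 2.05 ± 0.27. Slc7a11 was 1.51 ± 0.80 (limma, adjusted p = 0.246) against 2.44 ± 0.43, Gsr 0.25 ± 0.20 (limma, adjusted p = 0.438) against 0.45 ± 0.10, and Hmox1 1.02 ± 0.49 (limma, adjusted p = 0.200) against 2.05 ± 0.28.

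Without the 6 arrays with high muscle or fat markers the same number of members, 9, was called in each line. Slc7a11 was then 1.89 ± 0.48 in HCR (limma, adjusted p = 0.00254) and Gsr 0.29 ± 0.12 (limma, adjusted p = 0.0449). Gclm in HCR was 1.13 ± 0.27 (limma, adjusted p = 0.00141), against 1.43 ± 0.25 with all arrays. The HCR smoke arrays left out had means of the 8 targets of 0.76 to 1.21 log2 relative to all arrays. All HCR smoke arrays ran from -0.38 to 1.72, so this setting also removes animals with high targets from HCR smoke alone.

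Beyond the 10, other genes known to respond to NRF2 were counted. Of 42 listed, 36 were measured: in HCR 16 were higher and 1 lower, in LCR 20 higher and 3 lower (limma, adjusted p under 0.05), with a median change of 0.15 and 0.26 log2 against -0.03 and -0.00 for all genes. The share of all genes called higher was 17.7% in HCR and 22.7% in LCR. The largest rise was that of Akr1b8, an aldo-keto reductase, 2.24 ± 0.31 in HCR and 2.05 ± 0.31 in LCR (limma, adjusted p = 5.56e-07 and 1.26e-06). Of the glutathione genes Ggt1, which breaks down extracellular glutathione, rose by 0.99 ± 0.23 and 0.88 ± 0.23, Glrx, glutaredoxin, by 0.40 ± 0.11 and 0.75 ± 0.11, and Gstp1, a glutathione transferase, by 0.44 ± 0.07 and 0.25 ± 0.07. All 5 measured genes that supply NADPH rose in both lines. They were led by Me1, malic enzyme, at 0.69 ± 0.15 and 0.85 ± 0.15, and by Idh1, isocitrate dehydrogenase, at 0.62 ± 0.07 and 0.71 ± 0.07.

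Of 5 measured heme and iron genes 1 was higher in HCR, where 17.7% of all genes were, and 4 in LCR, where 22.7% were. Blvrb, biliverdin reductase B, which acts after heme oxygenase, was 0.11 ± 0.07 in HCR (limma, adjusted p = 0.178) and rose by 0.42 ± 0.07 in LCR (limma, adjusted p = 7.42e-06), and the interaction was 0.30 ± 0.10 (limma, adjusted p = 0.0907), not called. Of 13 genes of carbonyl and xenobiotic metabolism and export 3 rose in each line, a share near the 17.7% and 22.7% of all genes. They were Akr1b8, Cbr3 and Abcc4, a multidrug exporter that rose by 0.48 ± 0.10 and 0.80 ± 0.10. Aox1, aldehyde oxidase, fell by 0.41 ± 0.09 in HCR and by 0.31 ± 0.09 in LCR. In LCR Ptgr1 and Ephx1, microsomal epoxide hydrolase, also fell. Osgin1 rose by 0.81 ± 0.17 and 0.82 ± 0.17. The interaction was called for 1 of the 36, Mgst1, microsomal glutathione transferase, which was 0.01 ± 0.04 in HCR and rose by 0.28 ± 0.04 in LCR (difference 0.27 ± 0.06; limma, adjusted p = 0.0171), against 1.87% of all genes.

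**Figure D5:**
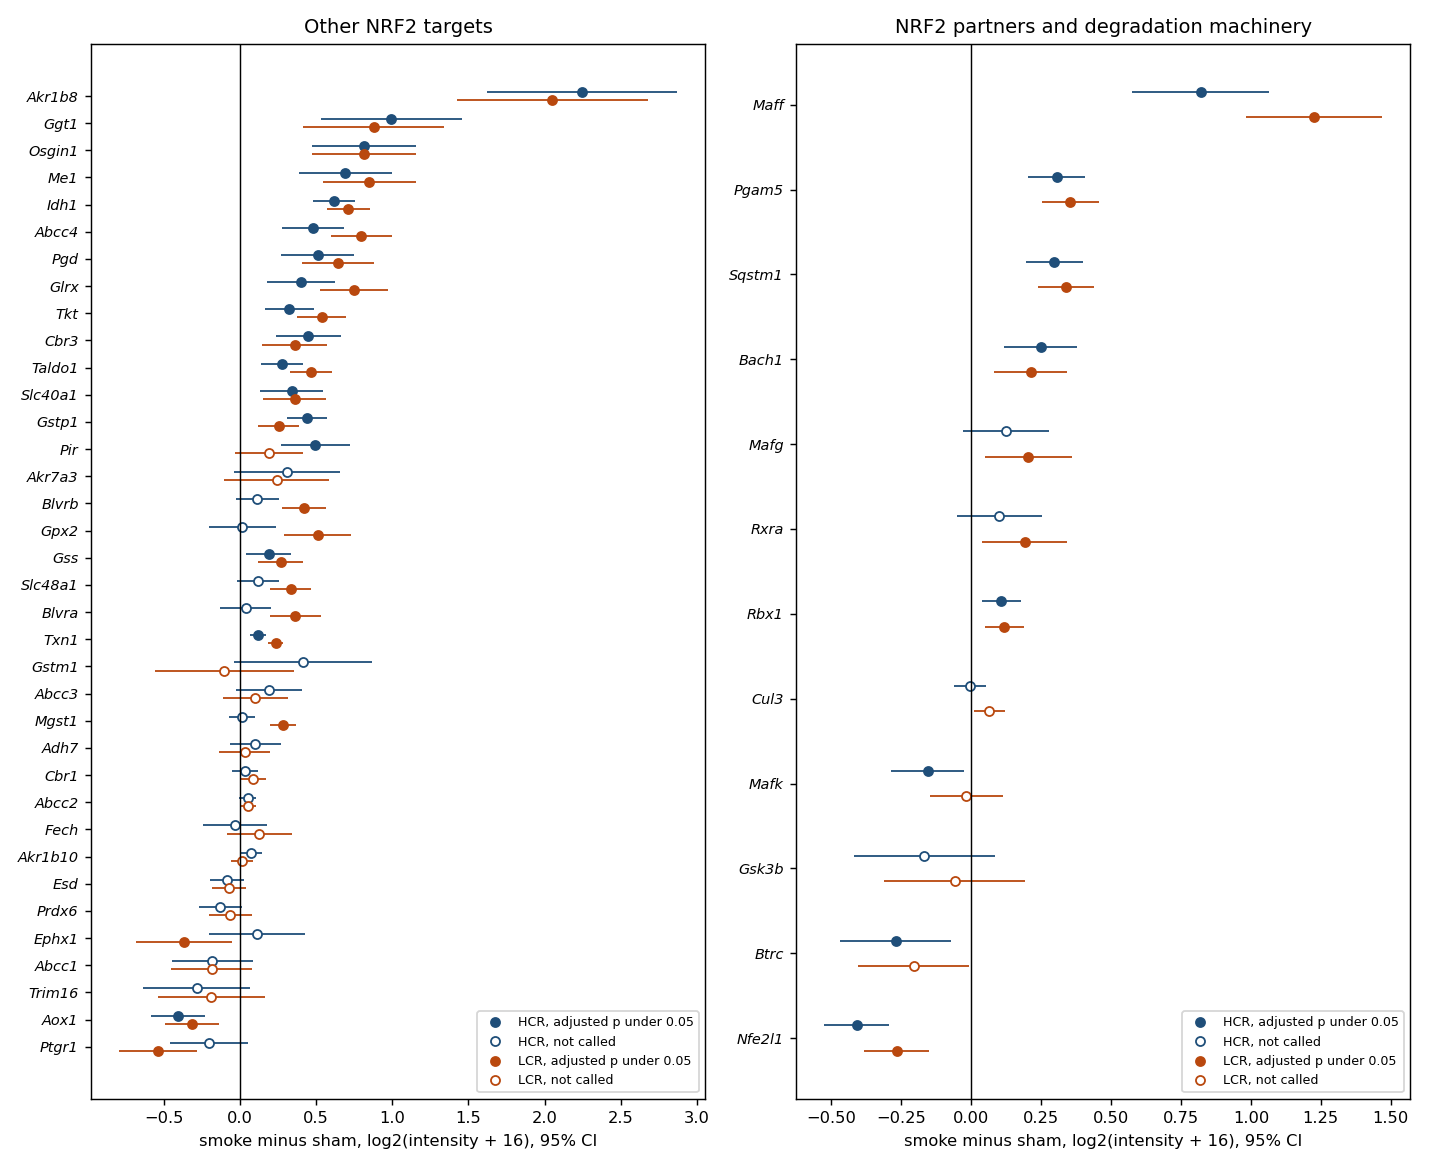
Smoke minus sham in HCR (blue) and LCR (orange) with 95% confidence intervals from limma, for 36 other NRF2 targets (left) and 12 genes of NRF2 partners and degradation (right); filled points have an adjusted p under 0.05. Akr1b8 and Maff lie farthest to the right, and Nfe2l1 lies lowest among the partners.

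Among 12 measured partners, competitors and degradation factors 5 were higher and 3 lower in HCR, and 7 higher and 1 lower in LCR. In either direction that is 8 of 12 in each line, where 48.0% and 50.6% of all genes were called. Maff, a small MAF protein that pairs with NRF2, rose by 0.82 ± 0.12 and 1.23 ± 0.12 (limma, adjusted p = 1.49e-06 and 4.17e-10). Sqstm1, the autophagy receptor p62 that binds KEAP1, rose by 0.30 ± 0.05 and 0.34 ± 0.05, and Bach1, the repressor that competes for the same elements, by 0.25 ± 0.06 and 0.21 ± 0.06. Nfe2l1, the relative of NRF2 that answers to proteasome stress, fell by 0.41 ± 0.06 and 0.27 ± 0.06, and it was lower in LCR than in HCR by 0.48 ± 0.06 under sham (limma, adjusted p = 1.32e-05) and by 0.34 ± 0.05 under smoke (limma, adjusted p = 4.21e-05). Cul3, the cullin of the KEAP1 ligase, was -0.00 ± 0.03 and 0.06 ± 0.03, not called.

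Slc7a11 and several other members also answer to ATF4 or to the aryl hydrocarbon receptor, so both pathways were counted. Of all genes 17.7% in HCR and 22.7% in LCR were called higher, and 48.0% and 50.6% in either direction. Of 11 ATF4 pathway genes 1 was higher and 2 lower in HCR, and 5 higher and 0 lower in LCR, by 0.13 to 0.45 log2; Ddit4 fell by 0.87 ± 0.23 in HCR. Of 8 aryl hydrocarbon receptor genes 5 were higher in HCR and 6 in LCR. Cyp1a1 rose by 7.19 ± 0.14 and 7.13 ± 0.14, Aldh3a1, an aldehyde dehydrogenase, by 3.82 ± 0.24 and 3.66 ± 0.24, Cyp1b1 by 2.80 ± 0.25 and 3.39 ± 0.25, and Ahrr, the receptor's repressor, by 1.70 ± 0.11 and 2.11 ± 0.11. Nqo1 is known to be induced through both NRF2 and this receptor.

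The genes most like Nqo1 and Hmox1 were ranked over 14207 genes, the members left out, by Pearson's r. Over plain log2 values, which smoke splits into separate clusters so that no r is given, the 5 most like Nqo1 were Cyp1a1, Cyp1b1, Aldh3a1, Ahrr and Chia, and the 5 most like Hmox1 were Slc1a4, Akr1b8, Sqstm1, Cyp1b1 and Htatip2. Over deviations from the group means on all 38 arrays the order changed: Ggt1 (r = 0.860), Entpd5, Kif21a, Ccdc96 and Adam8 were most like Nqo1, and Sfn (r = 0.894), Slc1a4, Prss22, Akr1b8 and Lrp8 were most like Hmox1. Among the members, Srxn1 went closest with Hmox1 (r = 0.960) and Gclc closest with Nqo1 (r = 0.829). None of the 4 aryl hydrocarbon receptor genes among the first 5 over plain values was among the first 5 over deviations.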

How the data were processed

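Lung RNA of 38 rats was measured on Affymetrix Rat Genome 230 2.0 arrays, 1 per animal. The authors deposited linear intensity values, 2.09 to 11558 over 31099 probe sets. How they were summarised and normalized was not given in the sources used here. Groups were taken from the sample titles. Values were analysed as log2(intensity + 16). Of the probe sets 20826 had 1 symbol in the platform annotation, 436 had several, 9780 had none and 57 were controls. The single-symbol probe set with the highest mean stood for each of 14217 genes. RefSeq IDs matched 20758 of those 20826, and this changed 0 symbols.

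Group means were fitted with limma 3.58.1 (lmFit, eBayes, R 4.3.3) on all 38 arrays (34 residual degrees of freedom), and 5 contrasts were tested two-sided, adjusted by Benjamini-Hochberg over all genes, with a threshold of 0.05. Other probe sets of the members were adjusted over 20826 probe sets. Permutation tests used NumPy 2.4.6 in Python 3.11.15. The fit was tested on simulated data. Correlations between arrays lay between 0.962 and 0.997.

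The members and gene lists were chosen with earlier results of these data known. Named genes were all members, up to 3 genes per direction and list with the largest called change, and the 5 genes most like Nqo1 and Hmox1; Gss, Slc3a2, Cul3, Bach1, Blvrb, Gstp1 and Mgst1 were added for their role. Alternatives were other normalizations, filters, probe set rules, pseudocounts, weights, covariates and left-out arrays.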

Additional observations from a re-analysis of the deposited data

Results flagged for a closer look

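Among the 20 groups of 7 sham arrays tested (10 members in 2 lines), 2 held an array set apart from the others by Dixon's ratio. Chance flags about 1 in 20 groups. Gclc on LCR sham 0442 was the highest of its group at 7.65 log2, against 7.24 to 7.41 on the other arrays; this array also had the highest heart muscle list mean. Gsr on HCR sham 0432 was the lowest of its group at 6.31 log2, against 6.93 to 7.26 on the others.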

How the results depend on the processing

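The 9 members called in each line under smoke stayed 9 with each of the 38 arrays left out, and no member's called change turned its sign. Members called in LCR fell from 9 to 2 with the macrophage marker mean as a covariate, and genes called from 7193 to 639; the standard errors grew with it (Gclm 0.25 to 0.47), and Gclm kept its change, 1.40 against 1.41, while its call was lost; in HCR genes called went from 6830 to 3945, and to 3023 with the interquartile range as a covariate. Between lines under sham 0 members became 1, Nqo1, with array weights and with the interquartile range, Actb or Gapdh as a covariate, and between 0 and 1 with 1 array left out. It was 1 without HCR smoke 0409, 0413 or 0416, HCR sham 0432 or 0438, or LCR sham 0443. Under smoke 0 became 1, Gsr, with array weights and the Actb covariate, and stayed 0 with any 1 array left out. The interaction gave 0 members throughout; with only the groups compared it has no separate fit.

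Counts over all genes moved more. Under sham 531 genes became 815 with median-centred arrays, 233 with only the groups compared, 946 with array weights and 827 with the interquartile range covariate, and 314 to 830 with 1 array left out, the ends without HCR sham 0434 and 0432. Under smoke 898 became 2860 with array weights, 365 with the interquartile range covariate and 487 without 6 arrays. For the interaction 266 became 549 with median-centred arrays, 1537 with array weights, 562 and 629 with the Gapdh and Actb covariates, 6 with the macrophage covariate and 58 without 6 arrays. It ran from 81 to 768 with 1 array left out. It moved by over 1.5 times without HCR smoke 0412 (404) or 0419 (175), LCR smoke 0420 (417) or 0429 (170.0), HCR sham 0432 (768), 0434 (81), 0435 (129), 0436 (107) or 0439 (518), or LCR sham 0441 (114), 0442 (152) or 0445 (103). The causes were not tested. No paired analysis was possible because the groups share no replicate numbers.

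Slc7a11 on sham arrays lay below the pseudocount, so the size of its change, though not its call, moved with the pseudocount. The labels give no batch, and the order of array numbers cannot be told apart from the groups.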
